A study of Homo sapiens with 2 samples.

Results

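The ATF4 stress response is described here through 37 genes in single H9 cells of 2 states: the transcription factors of the response (5 genes), its stress effectors (6), the enzymes of amino acid synthesis and mitochondrial one-carbon metabolism (9), amino acid transporters (4), and cytosolic tRNA synthetases with the tRNA export receptor XPOT (13). The genes were given as a list of symbols, and all 37 were among the 22474 genes of the deposited tables. H9 is a widely used line of human embryonic stem cells (ESCs). One library held 16 H9 ESCs, the reference state, and the other held 25 feeder-free extended pluripotent stem cells (ffEPSCs) that had been converted from H9 ESCs. Both libraries were made with Smart-seq2, which copies polyadenylated RNA of a cell over its full length. Neither the culture media nor the agents of the conversion are named in the labels. The series holds 1 sample per state, and cells of 1 sample are not replicates. No test between the states was therefore possible, and every value below describes these 2 libraries.

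ATF4 is the main transcription factor of the integrated stress response. When amino acids are short, when unfolded proteins collect in the endoplasmic reticulum, or when mitochondria or haem supply fail, kinases phosphorylate the translation factor eIF2, bulk protein synthesis slows, and the ATF4 messenger is translated more because of the short reading frames that precede its coding region. ATF4 then dimerises with C/EBP proteins and activates genes that make, import and charge amino acids onto tRNAs, together with feedback and stress genes. ATF4 itself is set in large part by translation, so the level of its mRNA is only part of its activity. In pluripotent cells the serine and one-carbon branch of this set feeds nucleotide synthesis and methylation.

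ATF4 and C/EBP dimers bind a composite element with the core TGATGNAA, and the members are introduced here by the copies that lie near their start sites, because this is the feature of sequence by which the response is usually recognised. RefSeq promoter windows on GRCh38.p14 (250 bases before to 50 bases after the start of transcription) matched 31 of the 37 members, and both strands were searched. The core TGATGNAA lay in 13 of 31 member windows (41.9%), against 4.46% of all 27305 genes with a window and 2.63% of the 8556 that passed the expression floor used below. The form TGATGCAA, which is contained in the first, lay in 9 of 31, against 1.08% and 0.76% of those genes. The 9 windows with TGATGCAA and that of the asparagine synthetase gene ASNS, which carries TGATGAAA, read as follows, 5′ to 3′ on the strand that holds the element, with the element in capitals.
AARS1, chr16:70289675-70289704, plus strand: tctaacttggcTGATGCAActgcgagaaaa
CARS1, chr11:3057407-3057436, plus strand: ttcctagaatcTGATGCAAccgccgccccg
IARS1, chr9:92293692-92293721, plus strand: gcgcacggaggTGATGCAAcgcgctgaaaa
MARS1, chr12:57488053-57488082, minus strand: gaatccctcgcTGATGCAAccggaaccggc
NARS1, chr18:57621804-57621833, minus strand: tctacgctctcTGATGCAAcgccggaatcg
TARS1, chr5:33440956-33440985, minus strand: gctggaccagcTGATGCAAtcgaaaggcgc
CEBPG, chr19:33374060-33374089, plus strand: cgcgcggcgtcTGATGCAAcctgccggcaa
CHAC1, chr15:40953251-40953280, minus strand: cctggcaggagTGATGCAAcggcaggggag
SLC1A5, chr19:46784893-46784922, minus strand: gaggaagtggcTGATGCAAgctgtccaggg
ASNS, chr7:97872458-97872487, minus strand: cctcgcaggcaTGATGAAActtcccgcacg

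Of the 9 copies of TGATGCAA, 6 belong to tRNA synthetase genes, and in 5 of those the copy lay close to the start of transcription as the table gives it: it began 13 bases before the start in IARS1, spanned the start in CARS1 and MARS1, and ended 10 and 22 bases after it in TARS1 and NARS1. In AARS1 it began 187 bases before the start. The copies in CEBPG, SLC1A5 and CHAC1 began 42, 97 and 209 bases before it. The start that the table uses for CEBPG, SLC1A5, TARS1 and ASNS lies inside the span of the gene, so that other starts of these genes were not searched. TGATGNAA was found in 0 of 9 windows of cytosolic synthetase genes and their scaffold genes outside the member list, in 1 of 14 windows of mitochondrial synthetase genes and in 6 of 12 windows of other known ATF4 targets. These counts describe the windows alone. A match is not a measured binding site, and the absence of the letters from this window says nothing about ATF4 at these genes. In all, 5 strings were searched, and TGATGCAA was singled out after its matches had been seen. The cyclic AMP element TGACGTCA was found in none of the 31 member windows (2.25% of all genes), and neither was the endoplasmic reticulum stress element, CCAAT and CCACG with 9 bases between them (0.0916% of all genes). The remaining string, TGATGNAAN, is the core with 1 more base inside the window and lay in the same number of member windows, 13 (4.45% of all genes).

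Gene counts came to 265412149 over the ESCs (11714517 to 19965639 in a cell) and to 374101290 over the ffEPSCs (12507469 to 17811209 in a cell). No cell name occurred in both libraries. Cell names carry a further number from 1 to 4, called a set here, whose meaning the labels do not give: ESCs fell in set 1 (7 cells) and set 3 (9 cells), and ffEPSCs in set 1 (3), set 2 (9), set 3 (2) and set 4 (11). The 4 ESCs with the fewest counts had 63.5 to 218 CPM (counts scaled to a total of 1000000 per cell or library) of the pluripotency gene POU5F1, below the 496 to 1310 CPM of the other 12, and results that rest on them are given with and without them. In 20 of 25 ffEPSCs, genes of chromosomes 5, 11, 14, 20 and 22 were higher together, and the other 5 ffEPSCs showed little or no such shift. The summed level of 6 pluripotency markers ran from 781 to 3750 CPM in ESCs and from 2356 to 3964 CPM in ffEPSCs. Of 8 fibroblast or feeder markers 5 were in the tables, and their sum was higher in ESCs (143 to 765 CPM, median 514) than in ffEPSCs (47.6 to 414 CPM, median 212). The sum was mostly THY1, at 382 CPM over all ESCs against 169 CPM over all ffEPSCs, and no ESC had less than 60.4 CPM of it. The rest ran from 8.67 CPM (COL1A1) to 47.1 CPM (TAGLN) in ESCs. All 5 were lower over all ffEPSCs, and 4 of them at least 2-fold, against 5.84% of all genes past the expression floor used below. S100A4 differed most, at 34.2 CPM in ESCs against 0.46 CPM in ffEPSCs. Whether the sum comes from fibroblasts or feeders was not tested, and neither was its part in the results.

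Levels of a library are its summed counts in CPM, and ratios are log2 of (ffEPSC CPM + 1) over (ESC CPM + 1), so that 0 means equal levels and 1 means 2-fold higher in ffEPSCs. A gene counted as measured when either library had 5 CPM or more of it, which 10825 genes and 35 of 37 members passed. Of the measured members 33 of 35 (94.3%) had a ratio above 0, against 52.9% of all measured genes, and their median ratio was 0.46, against 0.04 for all measured genes. The differences were small gene by gene: 4 of 35 members (11.4%) were at least 2-fold higher, against 8.3% of all measured genes, and none was at least 2-fold lower, against 5.84%. The share past 2-fold was thus near the background and is no result about the members, while the share above 0 was further from it. The members are not independent of each other, since their levels moved together between cells, as described below. In none of the 37 did the cells of the states separate without overlap, which 0.212% of all measured genes did.

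**Figure D1:**
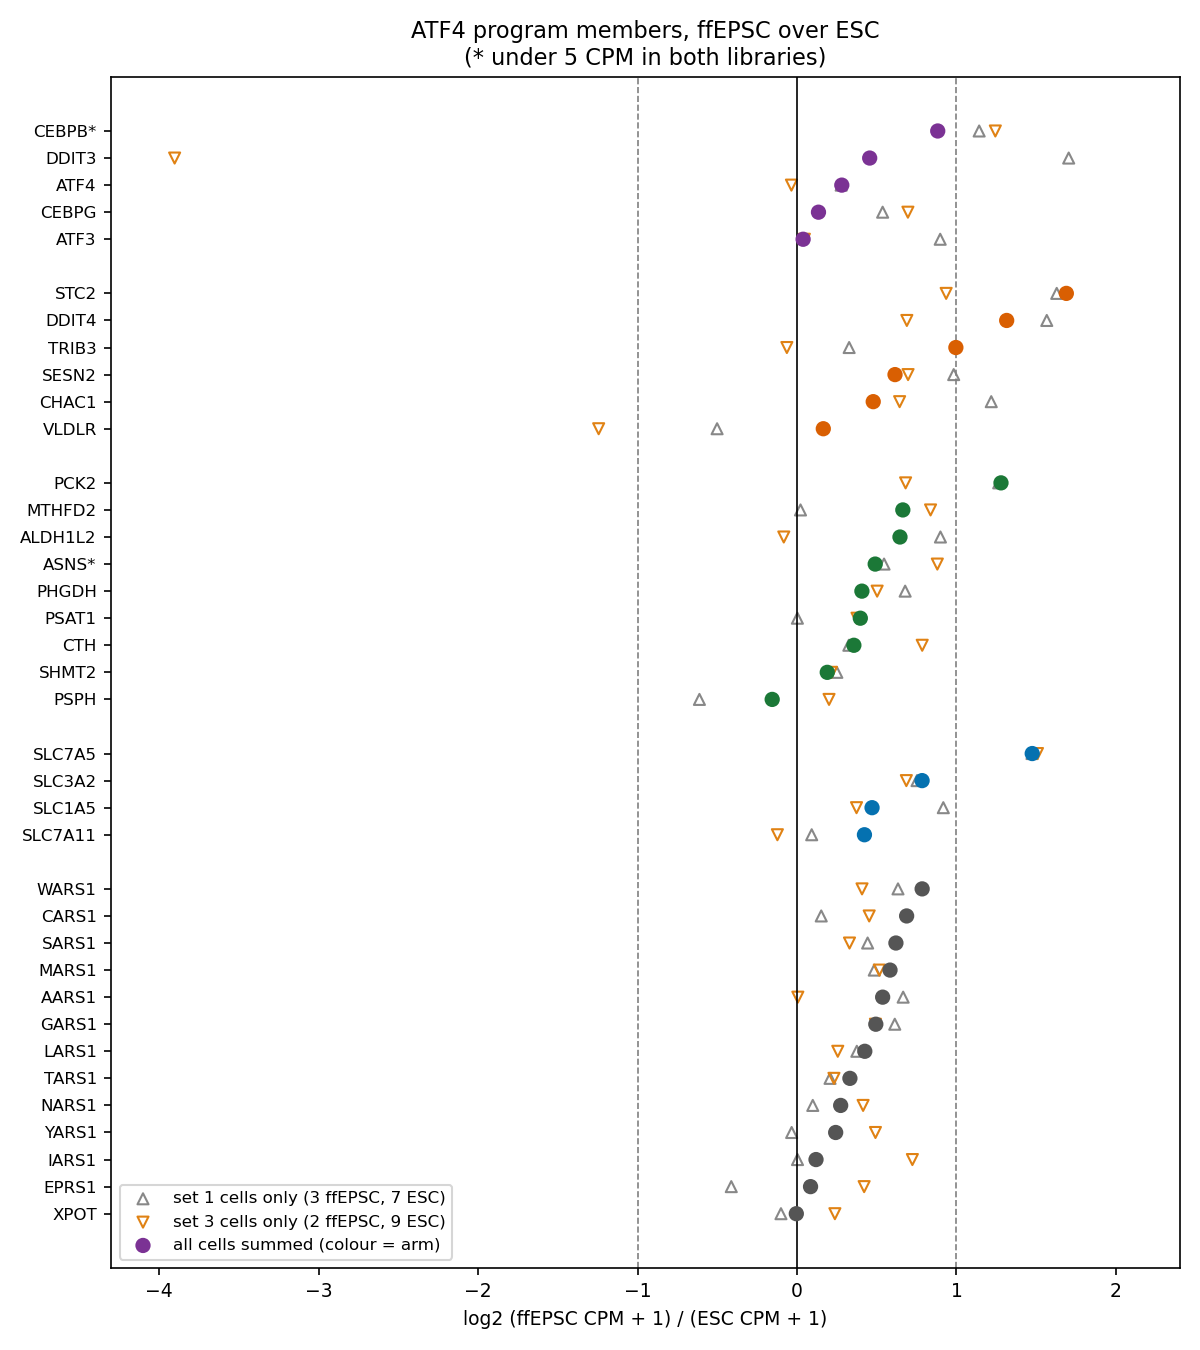
Log2 ratio of each member, ffEPSC over ESC, from all cells (filled points, coloured by arm), from set 1 cells alone and from set 3 cells alone (open triangles), with dashed lines at 2-fold. Most filled points lie between 0 and 1, STC2, SLC7A5, DDIT4 and PCK2 lie past 2-fold, and the set 3 point of DDIT3 rests on 2 ffEPSCs without a read and depends on the added 1 CPM.

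Among the transcription factors, the median ratio was 0.21, with 4 of 4 measured genes above 0. It was 0.72 within set 1 and 0.01 within set 3. ATF4 stood at 381 CPM in the library of ESCs against 463 CPM in that of ffEPSCs, a ratio of 0.28, with 113, 357 and 600 CPM as the lowest, median and highest ESC and 157, 465 and 759 CPM in ffEPSCs. The groups overlapped widely, and 19 of 25 ffEPSCs lay above the ESC median. The ratio was 0.28 within set 1 and -0.04 within set 3. CEBPG, a C/EBP partner of ATF4, was at 52.3 and 57.6 CPM (ratio 0.13), and ATF3, a stress-induced repressor and activator of the same family, was at 11.7 and 12.1 CPM (0.04). The ratio of ATF3 was 0.90 within set 1 and 0.89 with only the 5 ffEPSCs of little or no chromosome shift. Of 25 ffEPSCs, 14 lay above the ESC median for CEBPG and 12 for ATF3, which had no read in 5 ESCs and 5 ffEPSCs.

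DDIT3 encodes CHOP, the factor that links long-lasting stress to cell death. It was read at 9.04 CPM in ESCs against 12.8 CPM in ffEPSCs, with 3 of 16 ESCs and 7 of 25 ffEPSCs lacking any read and maxima of 50.2 and 43.6 CPM. Its ratio was 0.46 over all cells, with opposite directions in the sets. In set 1 it went from 2.58 CPM in ESCs to 10.7 CPM in ffEPSCs. In set 3 it was at 13.96 CPM in ESCs, and the 2 ffEPSCs of that set had no read, which allows up to 0.0881 CPM. With only the ffEPSCs of little or no shift its ratio was -0.43. DDIT3 shares 39.6% of its exonic bases with other genes, MARS1 on the opposite strand among them, and the labels do not say whether the counting used strand. CEBPB, the other C/EBP factor of the list, did not reach the floor (2.21 and 4.91 CPM) and is left out of the counts.

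The stress effectors had the highest median ratio (0.81, 6 of 6 above 0) and the widest spread between cells, with an SD of their mean log2 level of 1.31 over 16 ESCs and 1.04 over 25 ffEPSCs against 0.56 and 0.27 for the synthetases. STC2, which encodes the secreted glycoprotein stanniocalcin 2 (chr5:173314723-173328414 in RefSeq on GRCh38.p14, as for the gene spans below), was at 20.4 CPM in the library of ESCs (95% counting interval 19.9 to 20.9) against 68.0 CPM in that of ffEPSCs (67.1 to 68.8), 3.22-fold higher. Counting intervals are narrow at this depth and leave out the spread between cells, which was far wider: 0.17, 13.03 and 83.4 CPM in the lowest, median and highest ESC, and 5.54, 49.0 and 199 CPM in ffEPSCs. All but 1 ffEPSC (24 of 25) lay above the ESC median and 9 lay above every ESC. The ratio was 1.63 within set 1, 0.94 within set 3 and 1.39 with only the 5 ffEPSCs of little or no shift of chromosome 5, on which STC2 lies, and the other 4 chromosomes.

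DDIT4 encodes REDD1, an inhibitor of the growth kinase complex mTORC1. Its level was 38.3 CPM in ESCs against 96.8 CPM in ffEPSCs, 2.49-fold higher, with 0, 17.4 and 253 CPM in the lowest, median and highest ESC against 4.21, 68.2 and 384 CPM in ffEPSCs. ESCs without a read numbered 3, and every ffEPSC had reads. The difference between the 2 sets of ESCs was as large as that between the states: set 3 was at 52.6 CPM and set 1 at 19.5 CPM, a ratio of 1.39 against 1.31. Within set 3 the states differed by 0.69. DDIT4 shares 41.2% of its exonic bases with an antisense gene, so that reads of the pair cannot be told apart unless strand was used.

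TRIB3, a pseudokinase that feeds back on ATF4, lay at the 2-fold line (12.1 and 25.1 CPM, ratio 0.996). Its median cell had 5.42 CPM in ESCs against 13.02 CPM in ffEPSCs, 5 ESCs and 4 ffEPSCs had no read, and the highest cells had 48.7 and 248 CPM. The ratio was 0.33 within set 1, -0.06 within set 3 and -0.14 with only the 5 ffEPSCs of little or no chromosome shift. Set 3 of the ESCs exceeded set 1 by 2.19, more than the difference between the states.

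SESN2, which encodes a leucine sensor that restrains mTORC1, was at 17.6 and 27.5 CPM (0.61) and CHAC1, a glutathione-degrading enzyme, at 41.1 and 57.7 CPM (0.48). Of 25 ffEPSCs, 20 lay above the ESC median for each of the pair. With only the ffEPSCs of little or no shift both were past 2-fold (1.16 and 1.01), and CHAC1 was so within set 1 (1.22). VLDLR, a lipoprotein receptor, was at 12.5 and 14.1 CPM (0.16) and lay below 0 within set 1 (-0.50) and set 3 (-1.24). Over the 6 effectors, the median ratio of ESC set 3 over ESC set 1 was 1.01, larger than the median of 0.81 between the states, while set 4 over set 2 of the ffEPSCs gave 0.40. Without the 4 shallowest ESCs the median between the states was 0.62.

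**Figure D2:**
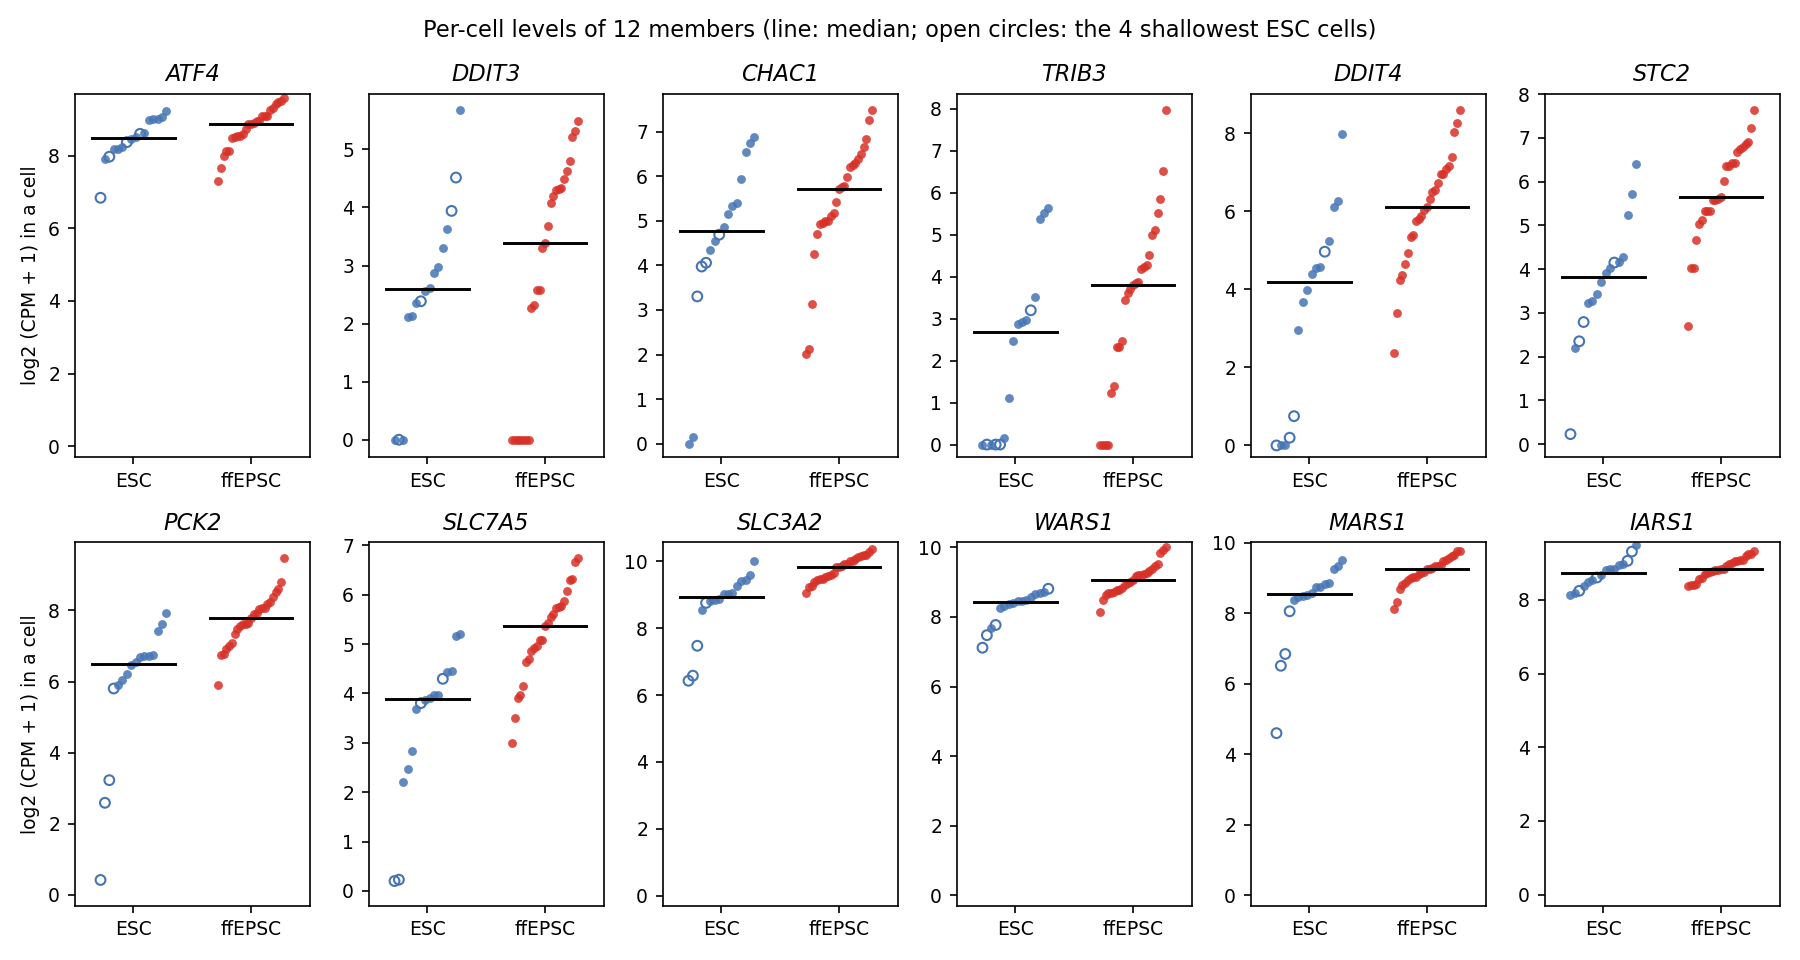
Level of 12 members in every cell, as log2 (CPM + 1), for 16 ESCs and 25 ffEPSCs, with a line at the median of the cells and open circles for the 4 shallowest ESCs. Every panel overlaps between the states, CHAC1, DDIT3, TRIB3 and DDIT4 have cells at 0, and the lowest ESCs of PCK2, SLC3A2 and MARS1 are shallow cells.

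Of the enzymes that make amino acids and carry single carbons, 7 of 8 measured genes had ratios above 0, with a median of 0.40. Serine is made from a glycolytic intermediate by PHGDH, PSAT1 and PSPH in that order. PHGDH, the entry step, was at 537 CPM in ESCs against 712 CPM in ffEPSCs (0.41), with 66.1, 557 and 897 CPM in the lowest, median and highest ESC and 433, 719 and 1116 CPM in ffEPSCs. PSAT1 was at 1071 and 1410 CPM (0.40), but its ratio was 0.00 within set 1 and 0.38 within set 3. PSPH, the last step, went the other way, with 114 and 102 CPM (-0.16) and 5 of 25 ffEPSCs above the ESC median. The ratio of PSPH turned positive within set 3 (0.20) and with only the ffEPSCs of little or no shift (0.21).

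Mitochondria split serine and oxidise its carbon through SHMT2, MTHFD2 and ALDH1L2. MTHFD2 was at 222 CPM in ESCs against 353 CPM in ffEPSCs (0.66), and 20 of 25 ffEPSCs lay above the ESC median of 214 CPM. Its ratio was 0.84 within set 3 and 0.02 within set 1. MTHFD2 shares 33.2% of its exonic bases with genes on the opposite strand. SHMT2 was at 342 and 390 CPM (0.19), and without the 4 shallowest ESCs its ratio was -0.04. ALDH1L2 was at 8.81 and 14.3 CPM (0.65), with no read in 6 of 16 ESCs and 3 of 25 ffEPSCs and a ratio of -0.08 within set 3.

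PCK2, the mitochondrial phosphoenolpyruvate carboxykinase (chr14:24094171-24104125), was the member of this arm past 2-fold, at 98.6 CPM in ESCs (97.4 to 99.8) against 241 CPM in ffEPSCs (239 to 242), 2.43-fold higher. The lowest, median and highest ESC had 0.34, 89.6 and 243 CPM, and the ffEPSCs had 59.2, 221 and 708 CPM. There were 24 of 25 ffEPSCs above the ESC median and 11 above every ESC. The ratio was 1.02 without the 4 shallowest ESCs, in which PCK2 was at 18.9 CPM against 118 CPM in the other 12. PCK2 lies on chromosome 14, and the ratio was 0.79 with only the ffEPSCs of little or no shift and 0.68 within set 3. CTH, which makes cysteine from cystathionine, was at 48.4 and 62.3 CPM (0.36). ASNS, the classical ATF4 target, did not reach the floor: it was at 1.75 CPM in ESCs against 2.86 CPM in ffEPSCs, with no read in 8 of 16 ESCs and 5 of 25 ffEPSCs. It shares 44.6% of its exonic bases with another gene on the same strand in GENCODE version 29. How the deposited counts treated such reads is not given, and the part of this overlap in the low level was not tested.

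The 4 amino acid transporters all had ratios above 0 (median 0.63). SLC7A5, also called LAT1, carries leucine and other large neutral amino acids (chr16:87830023-87869507). It was at 14.8 CPM in ESCs (14.3 to 15.2) against 42.8 CPM in ffEPSCs (42.1 to 43.5), 2.78-fold higher. The lowest, median and highest cells had 0.15, 13.8 and 35.8 CPM in ESCs and 7.01, 40.2 and 106 CPM in ffEPSCs. Of 25 ffEPSCs, 23 lay above the ESC median and 13 above every ESC. The ratio stayed past 2-fold in every subset of cells, with 1.47 within set 1, 1.51 within set 3, 1.34 without the 4 shallowest ESCs and 1.66 with only the ffEPSCs of little or no shift. The ESC sets differed in the opposite sense from most members, at 21.9 CPM in set 1 and 9.33 CPM in set 3.

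SLC3A2 encodes the heavy chain that SLC7A5 and SLC7A11 both need at the cell surface. It was at 521 CPM in ESCs against 898 CPM in ffEPSCs, 1.72-fold higher, with 85.04, 489 and 1037 CPM in the lowest, median and highest ESC and 525, 908 and 1331 CPM in ffEPSCs. Every ffEPSC lay above the ESC median, and 10 of 16 ESCs lay below every ffEPSC. The ratio was 0.75 within set 1, 0.69 within set 3, and 0.59 without the 4 shallowest ESCs. The glutamine carrier SLC1A5 was at 234 and 324 CPM (0.47), again with 25 of 25 ffEPSCs above the ESC median, although 0 lay above every ESC. Its ratio was 0.21 without the 4 shallowest ESCs. The cystine carrier SLC7A11 was at 65.1 and 87.6 CPM (0.42), with 16 of 25 ffEPSCs above the ESC median and a ratio of -0.12 within set 3.

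All 12 tRNA synthetases of the list, which load amino acids onto their tRNAs, had ratios above 0, from 0.08 (EPRS1) to 0.78 (WARS1), with a median of 0.46 and none past 2-fold. Within set 1, 10 of 12 were above 0, and 11 with only the ffEPSCs of little or no shift. WARS1, for tryptophan, was at 329 CPM in ESCs against 568 CPM in ffEPSCs, 1.72-fold higher. Its lowest, median and highest cells had 138, 345 and 448 CPM in ESCs and 284, 536 and 1030 CPM in ffEPSCs, and 17 of 25 ffEPSCs lay above every ESC. WARS1 lies on chromosome 14, and its ratio was 0.63 within set 1, 0.41 within set 3 and 0.38 with only the ffEPSCs of little or no shift.

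CARS1 (cysteine) followed with 100.3 and 162 CPM (0.69), SARS1 (serine) with 286 and 440 CPM (0.62) and MARS1 (methionine) with 400.1 and 600 CPM (0.58). For MARS1 and AARS1, 23 of 25 ffEPSCs lay above the ESC median. AARS1 (alanine) was at 193 and 280 CPM (0.54), but its ratio was 0.01 within set 3 and -0.16 with only the ffEPSCs of little or no shift. GARS1 (glycine), LARS1 (leucine) and TARS1 (threonine) had ratios of 0.49, 0.42 and 0.33, and NARS1 (asparagine) and YARS1 (tyrosine) had 0.27 and 0.24. IARS1 (isoleucine) and EPRS1 (glutamate and proline) were nearest to equal, at 433 and 470 CPM (0.12) and at 340 and 361 CPM (0.08). Within set 1 EPRS1 had -0.41 and YARS1 -0.03, and within set 3 IARS1 had 0.72. XPOT, which exports tRNAs from the nucleus, was at 226 and 225 CPM (-0.00).

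Synthetase genes outside the list had lower medians. The 11 other cytosolic synthetase and scaffold genes had a median ratio of 0.01, with 6 above 0, and ran from EEF1E1 (119 and 84.9 CPM, -0.48), a scaffold protein, to QARS1 (211 and 367 CPM, 0.80), for glutamine. Their median was -0.03 within set 1, -0.265 within set 3, with 3 above 0, and -0.17 with only the ffEPSCs of little or no shift. The 16 measured mitochondrial synthetases had a median of 0.28, with 11 above 0 and CARS2 past 2-fold (10.4 and 26.1 CPM, 1.25). The ratio of CARS2 was 0.77 within set 1, 0.14 with only the ffEPSCs of little or no shift and -0.37 within set 3. MARS2 was their lowest (33.6 and 25.7 CPM, -0.37). Whether the lists differ was not tested. The 12 measured members with TGATGNAA in their window had a median of 0.47 and the 17 without it 0.61. These medians mix arms: in the synthetase arm the 7 with the element had 0.49 and the 4 without it 0.35. Among other measured genes, the 213 with the element had a median of 0.03 and the 8314 without it 0.04.

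The 18 genes of the eIF2 kinases and their regulators, the phosphatase subunits, eIF2 and its exchange factor eIF2B had a median ratio of 0.24, with 13 above 0. Within set 1 the median was -0.01, with 8 above 0. EIF2AK4, which encodes GCN2, the kinase that senses uncharged tRNAs, was at 103 CPM in ESCs against 46.3 CPM in ffEPSCs (-1.14), but its ratio was -0.25 within set 3 and -0.07 with only the ffEPSCs of little or no shift. PPP1R15A, which encodes GADD34, the stress-induced phosphatase subunit that reverses the response, was at 12.1 and 26.2 CPM (1.05). The ratio of PPP1R15A was 2.17 within set 1, 0.99 within set 3, 0.76 without the 4 shallowest ESCs and 0.56 with only the ffEPSCs of little or no shift.

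Of 16 other known targets of ATF4, 12 were measured, with 7 above 0 and a median of 0.36. Within set 1 the median was -0.11, with 4 above 0. JDP2 (1.18 and 6.76 CPM, 1.83) and ATF5 (2.22 and 7.24 CPM, 1.35), both transcription factors, were past 2-fold higher at low levels, although ATF5 had 0.49 within set 3. BCAT1, the cytosolic branched-chain aminotransferase, was past 2-fold lower (348 and 159 CPM, -1.12), with -0.38 within set 3 and -0.79 with only the ffEPSCs of little or no shift. The 15 measured genes of the ATF6 and XBP1 arm, the other branches of the unfolded protein response, had a median of 0.01, from DNAJB9 (-1.04, and -0.02 within set 1) to HYOU1 (0.80, and -0.89 within set 3). Within set 3 the median of that arm was -0.56, with 5 above 0 and 4 at least 2-fold lower (15.5% of all genes). The 10 measured genes of the remaining folate pathway had a median of 0.09 over all cells. MTHFD2L was their lowest (-1.04, -0.01 within set 1 and -0.41 with only the ffEPSCs of little or no shift).

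**Figure D3:**
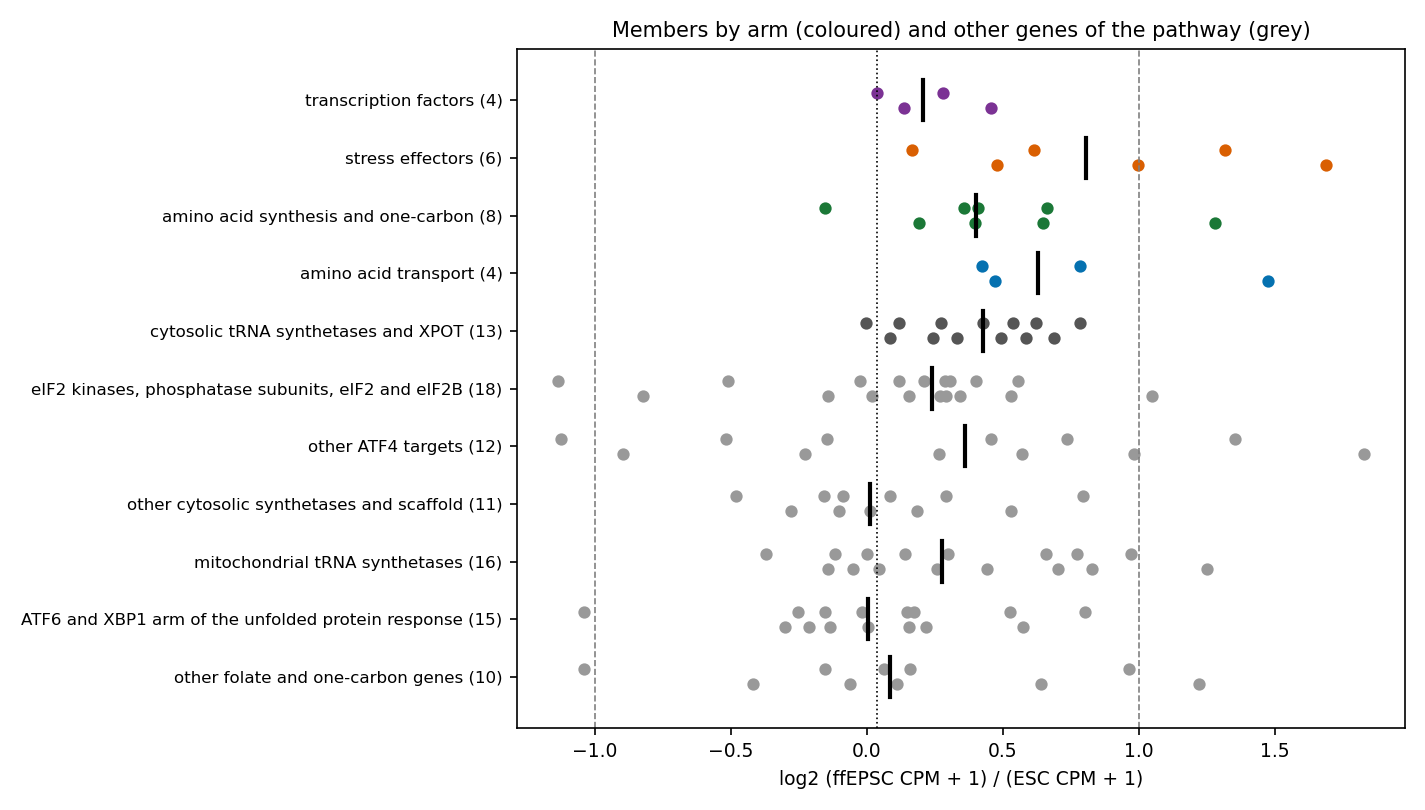
Log2 ratio, ffEPSC over ESC, of the measured members by arm (coloured) and of other genes of the pathway by list (grey), with the number of genes in brackets, black bars at list medians, a dotted line at the median of all measured genes and dashed lines at 2-fold. The arms have medians from 0.21 to 0.81, and the other cytosolic synthetases and the ATF6 and XBP1 arm have medians of 0.01.

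The same direction was seen within the sets that hold cells of both states, with fewer cells behind it. Within set 1 the median ratio of the 35 measured members was 0.44, with 30 above 0 (53.2% of all genes), and within set 3 it was 0.41, with 29 above 0 (47.3% of all genes). In all, 25 of 35 members were above 0 in both sets, a count that was not made over all genes and so has no background here. Within set 1, 6 members were at least 2-fold higher (14.4% of all genes) and 0 lower (11.6%). Within set 3, 1 member was at least 2-fold higher (10.1%), SLC7A5, and 2 were lower (15.5%), DDIT3 and VLDLR. Both ffEPSCs of set 3 are among the 5 of little or no shift, so that set and shift cannot be told apart there. Without the 4 shallowest ESCs 32 of 35 were above 0 (50.9% of all genes), with 4 at least 2-fold higher (8.08%) and 0 lower (6.41%). With only the ffEPSCs of little or no shift 31 of 35 were above 0 (53.7%), with 5 at least 2-fold higher (8.87%) and 0 lower (7.28%). SLC7A5 was past 2-fold in each of these subsets, STC2 and DDIT4 in all but set 3, PCK2 in set 1 and without the 4 shallowest ESCs, CHAC1 in set 1 and with the ffEPSCs of little or no shift, SESN2 with those ffEPSCs and DDIT3 in set 1.

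Differences between sets of 1 state give a scale for these values. Between ESC set 3 and ESC set 1 the median was 0.17, with 26 of 35 members above 0 (51.6% of all genes), 5 at least 2-fold higher in set 3 (4.62%) and 1 lower (3.24%). The 5 were TRIB3 (2.19), DDIT3 (2.06), DDIT4 (1.39), SESN2 (1.104) and ALDH1L2 (1.02), and the lower one was SLC7A5 (-1.15). In 14 of 35 members the ESC sets differed by at least as much as the states. Between ffEPSC set 4 and set 2 the median was 0.10, with 24 of 35 above 0 (48.4%) and 0 at least 2-fold higher (2.69%) or lower (2.74%). There the sets differed by at least as much as the states in 9 of 35. Neither this count nor that of the ESC sets was made over all measured genes. Whether they are particular to the members is therefore not known.

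Members on the chromosomes that were shifted in 20 ffEPSCs had larger ratios. Of the 37 members 10 lie on chromosomes 5, 11, 14, 20 and 22 (ATF4, CEBPB, TRIB3, STC2, LARS1, TARS1, PCK2, WARS1, SLC3A2 and CARS1), and the 9 measured ones had a median ratio of 0.78, against 0.35 for all measured genes there. With only the ffEPSCs of little or no shift these values were 0.38 and 0.14. The other 26 measured members had a median of 0.41, against -0.04 for all other genes with a known chromosome, and 0.45 with only the ffEPSCs of little or no shift. SLC7A5 and DDIT4, on chromosomes 16 and 10, were past 2-fold outside the shifted chromosomes.

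Between cells of 1 state, the members moved together. The correlations are Pearson r of log2 (CPM + 1) after each cell was thinned to 11000000 counts, which removed no cell. They are descriptions over cells that share a library. In ffEPSCs the median r over the 595 pairs of measured members was 0.29, with 86.2% of pairs above 0, against a median of 0.01 over pairs of all measured genes. In ESCs it was 0.37 against 0.05, but without the 4 shallowest ESCs it was 0.19 against 0.01. The mean level of the members went with the gene counts of a cell in ESCs (r = 0.73, and 0.38 without those 4) and not in ffEPSCs (r = -0.16). The shallowest ffEPSC, with 12507469 counts, had the highest member mean. With the number of genes that had a read in a cell, the member mean had r = 0.70 in ESCs, 0.39 without those 4, and 0.30 in ffEPSCs. In ESCs it also went with POU5F1 (r = 0.76, and 0.90 for the synthetase arm). Without the 4 shallowest, POU5F1 had r = 0.35 and Spearman's rho = 0.66 with the member mean, against rho = 0.24 for gene counts. For the synthetase arm r with POU5F1 was then 0.27 and rho 0.55. In ffEPSCs r of the member mean with POU5F1 was 0.24. The part of depth, of the number of genes with a read, of POU5F1 and of the chromosome shift in the correlations was not tested.

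**Figure D4:**
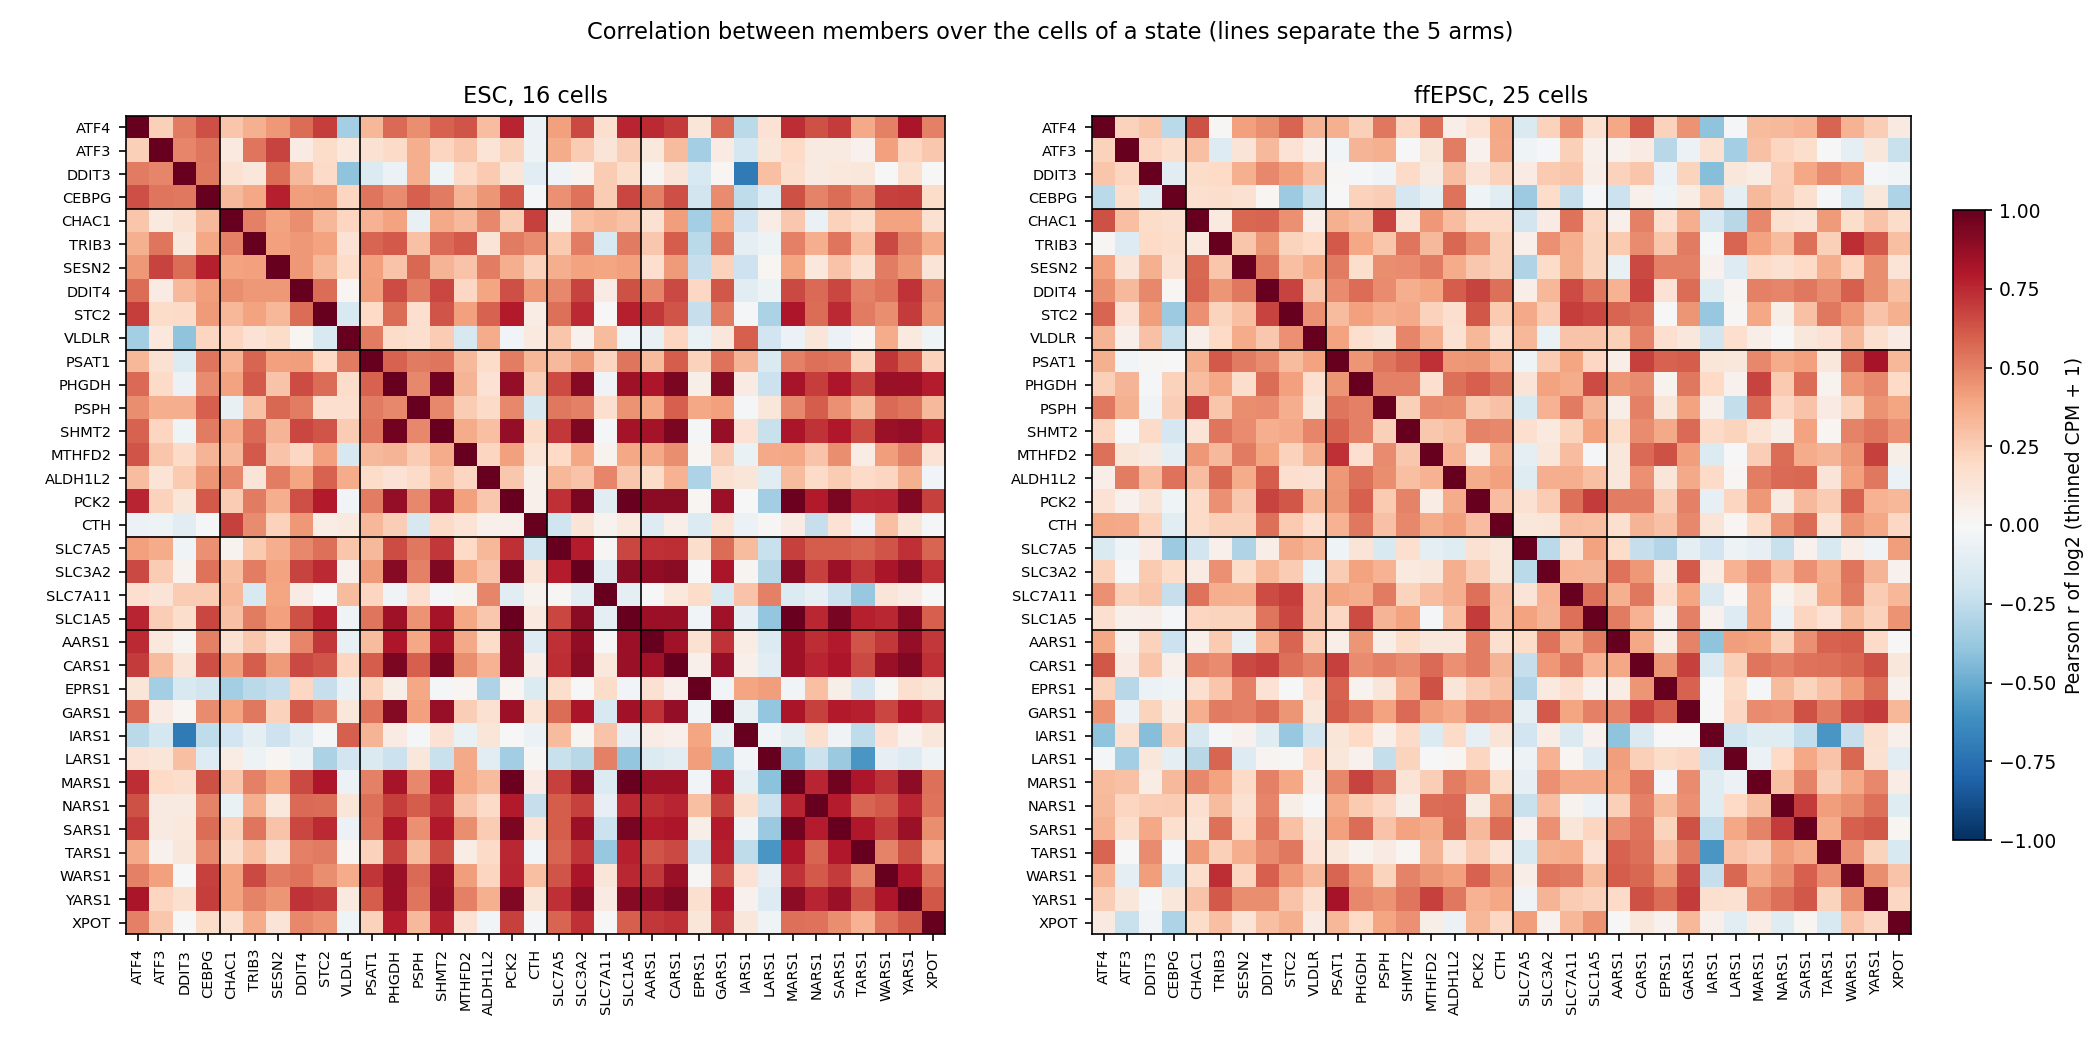
Pearson r between members over 16 ESCs (left) and 25 ffEPSCs (right), on one colour scale from -1 to 1, with members ordered by arm and lines between the arms. Most squares are above 0 in both states, and the rows of IARS1, of EPRS1 in ESCs and of SLC7A5 in ffEPSCs hold many squares near or below 0, with exceptions such as IARS1 with VLDLR in ESCs (0.60).

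Arms were compared by their mean level in each cell. Stress effectors and the enzymes of amino acid synthesis and one-carbon metabolism had r = 0.93 in ESCs, 0.95 without the 4 shallowest and 0.79 in ffEPSCs. The last 2 values were the highest of the 10 pairs of arms. In all ESCs transporters and synthetases had the highest value (0.95), which was 0.70 without the 4 shallowest and 0.41 in ffEPSCs. Effectors and synthetases had r = 0.66, 0.54 and 0.73. The transcription factors went less closely with the synthetases (0.34, 0.02 and 0.26). Pairs within the synthetase arm had a median r of 0.57 in ESCs, which was 0.09 without the 4 shallowest cells, and of 0.33 in ffEPSCs. Among pairs of all 37 members the highest in ESCs were SLC1A5 with MARS1 (0.99), PCK2 with SLC1A5 (0.99), PCK2 with MARS1 (0.98), MARS1 with SARS1 (0.97) and PHGDH with SHMT2 (0.96). Without the 4 shallowest ESCs these 5 lay between 0.60 and 0.91. In ffEPSCs the highest were PSAT1 with YARS1 (0.82), TRIB3 with WARS1 (0.73), PSAT1 with MTHFD2 (0.73), NARS1 with SARS1 (0.70) and GARS1 with YARS1 (0.70). TRIB3 and WARS1 lie on chromosomes 20 and 14, which were shifted in 20 ffEPSCs. In those cells TRIB3 was at 28.7 CPM and WARS1 at 604 CPM, against 10.9 and 428 CPM in the ffEPSCs of little or no shift. The genes of the other ffEPSC pairs named here lie outside the shifted chromosomes.

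**Figure D5:**
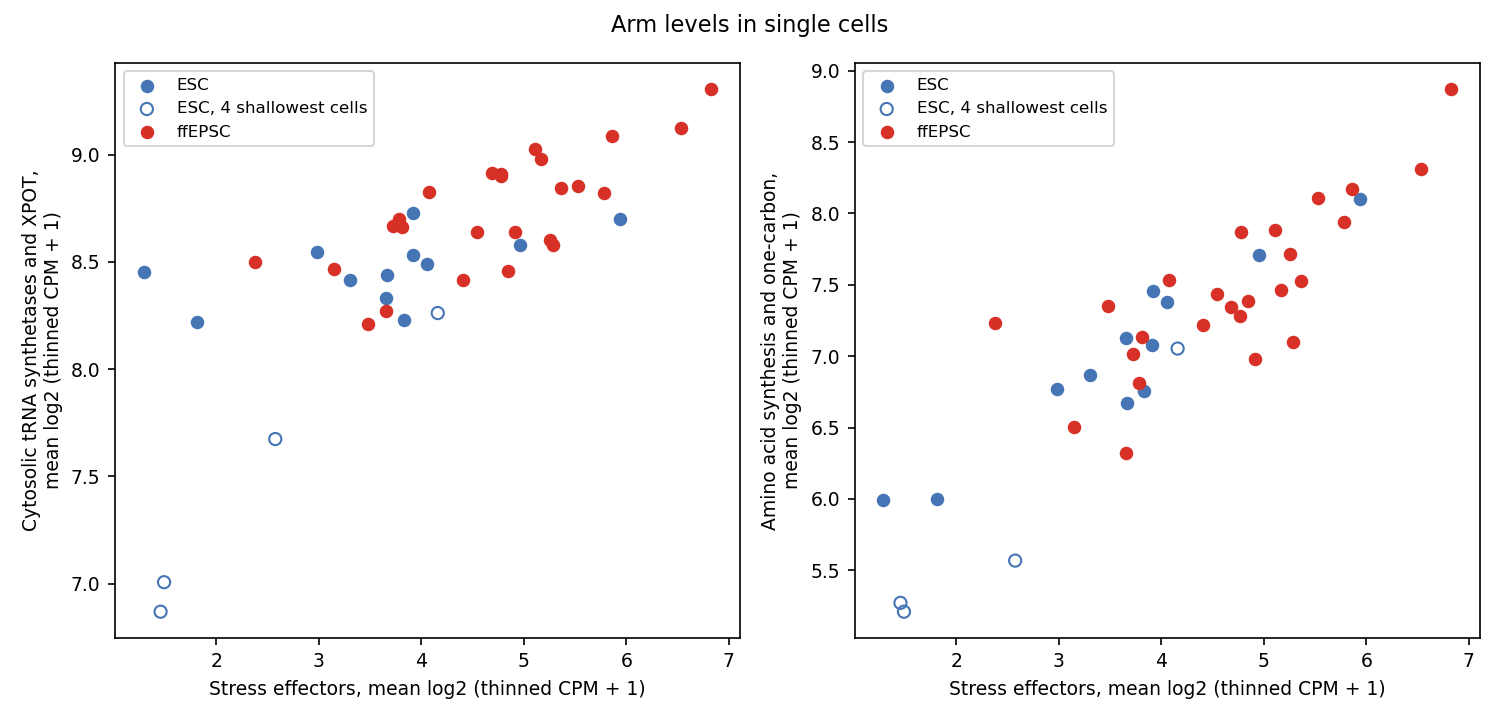
Mean log2 (thinned CPM + 1) of the stress effectors in a cell, against that of the synthetases with XPOT (left) and of the enzymes of amino acid synthesis and one-carbon metabolism (right), for ESCs and ffEPSCs, with open circles for the 4 shallowest ESCs. Cells with higher effectors had higher enzymes in both states (r = 0.93 in ESCs and 0.79 in ffEPSCs), and 3 of the 4 shallowest ESCs lie apart at the low end of the synthetases.

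Each member was also set against the mean of the members in the other arms. In ffEPSCs DDIT4 (r = 0.84) and CARS1 (0.75) followed the rest most closely, and ATF4 itself had 0.52. Genes outside the list were set against the mean of all measured members, which is not the same mean. In ffEPSCs they had a median of 0.02, with a 5th and a 95th percentile of -0.36 and 0.365. For members the median was 0.53 in ffEPSCs and 0.62 in ESCs (0.49 without the 4 shallowest), where other genes had 0.24 (0.05). Synthetases covered a range: CARS1, WARS1, GARS1, YARS1, SARS1 and MARS1 had 0.75, 0.64, 0.62, 0.59, 0.59 and 0.56, TARS1, NARS1 and AARS1 had 0.44, 0.42 and 0.35, and EPRS1, LARS1 and IARS1 had 0.24, 0.05 and -0.10. The same 3 were the lowest synthetases in ESCs (-0.14, -0.12 and -0.05), where MARS1 had 0.81. Without the 4 shallowest ESCs they had -0.45, 0.04 and -0.20, and AARS1 (-0.24) and NARS1 (-0.22) were then low as well. All 4 of EPRS1, LARS1, IARS1 and MARS1 are subunits of the multi-synthetase complex, and IARS1 carries TGATGCAA near its start just as MARS1 and CARS1 do. EPRS1, LARS1 and IARS1 were picked out after the values were seen.

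SLC7A5 stood apart in another way. Its level differed most between the states among the transporters, yet between ffEPSCs it had r = -0.02 with the members of the other arms, against 0.63 for SLC7A11, 0.47 for SLC1A5 and 0.44 for SLC3A2. In ESCs it had 0.65, and -0.00 without the 4 shallowest. Among pairs of all 37 members, CEBPB and ASNS included, the lowest were IARS1 with TARS1 (-0.58), CEBPB with GARS1 (-0.47) and DDIT3 with IARS1 (-0.42) in ffEPSCs, and DDIT3 with IARS1 (-0.70), LARS1 with TARS1 (-0.58) and LARS1 with MARS1 (-0.41) in ESCs. DDIT3 with IARS1 was among the lowest in both states, and had -0.74 without the 4 shallowest ESCs.

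The cells with the highest and the lowest mean over the members are described next, and since that mean chose them, their values are a description only. The ffEPSC with the highest member mean, from set 4, had 384 CPM of DDIT4, 248 CPM of TRIB3, 708 CPM of PCK2, 311 CPM of CARS1 and 1030 CPM of WARS1, and the lowest, from set 2, had 19.7, 13.02, 176, 75.6 and 412 CPM. DDIT3 was not among the high genes of the cell with the highest mean (9.43 CPM), and SLC7A5 was lower in that cell (27.98 CPM) than in the cell with the lowest mean (101 CPM). In ESCs the highest cell, from set 3, had 76.5 CPM of DDIT4, 243 CPM of PCK2 and 727 CPM of MARS1. The lowest, 1 of the 4 shallowest, had no read of DDIT4, 0.34 CPM of PCK2 and 23.1 CPM of MARS1, with 533 CPM of IARS1.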

How the data were processed

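Each deposited table holds the authors' raw counts, whole numbers per gene and cell. HISAT2 2.2.1, SAMtools 1.6 and Subread 2.0.6 with featureCounts appear in the submitters' processing notes, with no order or role, as does the build GRCh38. Neither the annotation nor the use of strand is stated there. The deposited repeat tables, on another build, were not used.

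Counts were summed per library and scaled to CPM. With 1 sample per state there is no test and no p-value. Intervals are exact Poisson at 95%, for counting error only, and about 98.5% (ESC) and 98.4% (ffEPSC) of non-zero counts were even, so they are too narrow if both reads of a pair were counted. No cells were removed and doublets were not called. Genes were called at 2-fold (added 1 CPM, floor of 5 CPM). All 37 members could be named. Of each further list the highest, the lowest and genes past 2-fold were named, except for 1 gene that is not reported here, as were the 5 highest and 3 lowest pairs per state. Members, lists and rules were chosen with earlier results of these data known. Cells with little or no shift had a mean shift below 0.3 over the 5 chromosomes and a shift of chromosome 5 that was also below 0.3. Chromosomes and promoters come from RefSeq (GRCh38.p14) and exon overlap from GENCODE version 29. The overlap check was added after the low level of ASNS had been seen. Scripts (Python 3.11.15, edgeR 4.0.16 for TMM factors in an alternative) were tested on simulated data.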

Additional observations from a re-analysis of the deposited data

How the results depend on the processing

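No paired analysis was possible because each state is 1 sample. The 4 members at least 2-fold higher kept the sign of their ratio under every alternative run, and 22 of 35 measured members kept the sign of their ratio in all of them. Signs differed from the full comparison for 8 of 37 members within set 3, 6 with only the ffEPSCs of little or no shift, 3 within set 1, 2 with medians of cells, and 1 each with means of cells, with centring on all genes and without the 4 shallowest ESCs, and for 0 with TMM factors or an added 0.1 CPM. The count of members at least 2-fold higher was 4, against 7 from medians of cells, 1 within set 3 (with 2 at least 2-fold lower) and 2 without genes of the 5 shifted chromosomes. The medians below are for all members, transcription factors, stress effectors, synthesis and one-carbon enzymes, transporters and synthetases with XPOT, in that order. TMM factors gave 0.42, 0.17, 0.77, 0.36, 0.59 and 0.38. Centring on all genes gave 0.42, 0.17, 0.77, 0.36, 0.59 and 0.39. Means of cells gave 0.49, 0.23, 0.96, 0.46, 0.73 and 0.40. Set 3 gave 0.41, 0.0055, 0.67, 0.44, 0.53 and 0.41. The ffEPSCs of little or no shift gave 0.43, 0.35, 1.09, 0.49, 0.58 and 0.35. Leaving out the 4 shallowest ESCs gave 0.36, 0.13, 0.62, 0.41, 0.57 and 0.31. Without genes of the 5 chromosomes all members had 0.41, transcription factors 0.13, effectors 0.55, transporters 0.47 and synthetases 0.27. Set 1 gave 0.72 for transcription factors, 1.1002 for effectors, 0.29 for synthesis, 0.83 for transporters and 0.21 for synthetases. Medians of cells gave 1.17 for effectors, 0.48 for synthesis, 0.85 for transporters and 0.40 for synthetases. With no floor the transcription factors had 0.28, and with a floor of 20 CPM the effectors had 0.996. The median correlation of pairs in ESCs was 0.30 with Spearman's rho, 0.38 after removal of set means and 0.19 without the 4 shallowest cells, and in ffEPSCs it was 0.28 without thinning and 0.30 after removal of set means. The cause of these shifts was not tested. ASNS (464 counts in ESCs and 1070 in ffEPSCs) and CEBPB (586 and 1838) had few reads, and the part of depth in their values was not tested.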

Other observations

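The subunits of phenylalanyl-tRNA synthetase, which work as 1 enzyme and are not members, differed in how they went with the members between cells. FARSB had r = -0.74 with the mean of the members in ESCs, -0.34 without the 4 shallowest, and -0.64 in ffEPSCs. FARSA had 0.59, -0.08 and 0.04, so that the subunits went clearly opposite ways only over all ESCs. In the pooled libraries FARSA was at 260 CPM in ESCs against 262 CPM in ffEPSCs, and FARSB at 300.2 and 247 CPM. EEF1E1, the scaffold gene with the lowest ratio, also ran against the members in both states (-0.69 in ESCs, -0.38 without the 4 shallowest, and -0.46 in ffEPSCs), and so did MANF, a secreted factor of the endoplasmic reticulum (-0.55, -0.20 and -0.43). In the other direction, JDP2 followed the members in ffEPSCs (0.71) and less in ESCs (0.26, and 0.06 without the 4 shallowest). These genes were picked out after their values were seen.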
